A study of Mus musculus with 8 samples.

Results

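The core circadian clock genes are the 10 genes whose products form the transcriptional feedback loop of the mouse clock: Arntl, Clock, Npas2, Per1, Per2, Per3, Cry1, Cry2, Nr1d1 and Nr1d2. They were named by symbol, with no measured value in the rule, and were found through their Ensembl identifiers in GENCODE M21. All 10 were present among the 38293 identifiers of the table, and all 10 had enough counts to be among the 13336 genes tested. Poly(A) RNA came from the left ventricles of 8 untreated male C57BL/6 mice of 8 weeks of age, with 1 library per heart. Wild-type (WT) mice gave 4 of these hearts, replicates 1 to 4, and mORF4-NBDY knockout (KO) mice the other 4, replicates 5 to 8. The Nbdy product is a very small protein found with the factors that remove the cap of mRNA. The labels do not describe the knockout allele, a litter or a batch, and the hour at which the hearts were taken is not given in the sources used here.

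In this loop ARNTL (also called BMAL1) pairs with CLOCK, or with the related NPAS2, and switches on genes that carry E-box sequences. Among those genes are the Per and Cry repressors, whose proteins return to the nucleus and inhibit the activators, and Nr1d1 and Nr1d2, nuclear receptors (REV-ERB alpha and beta) that repress Arntl, Clock and Npas2. The loop runs in heart muscle cells as in most cells of the body. Many of its transcripts therefore rise and fall over the day, not all at the same hours, and a single sample shows 1 moment of that cycle.

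Short stretches upstream of the RefSeq start sites (GRCm38.p6) are shown for the repressor genes whose windows carry letters known from clock control, because these are letters through which the loop is known to act. Positions are counted from the start site, with negative numbers upstream. Capitals mark the E-box CACGTG, its variant CACGTT (read as AACGTG on the other strand), the D-box TTATGTAA and the REV-ERB and ROR core site AGGTCA (in Per1 read from the other strand). Each line reads 5′ to 3′ on the gene's strand, and none of the bases shown lies in an annotated exon.
Per1: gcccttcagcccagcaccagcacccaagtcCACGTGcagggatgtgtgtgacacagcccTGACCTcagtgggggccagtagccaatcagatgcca
Per3: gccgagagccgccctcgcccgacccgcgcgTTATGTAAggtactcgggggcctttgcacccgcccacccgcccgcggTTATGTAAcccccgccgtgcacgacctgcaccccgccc
Cry1: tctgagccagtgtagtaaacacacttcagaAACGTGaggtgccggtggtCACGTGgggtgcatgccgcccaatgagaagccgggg
Cry2: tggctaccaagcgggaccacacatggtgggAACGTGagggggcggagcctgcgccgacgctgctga
Nr1d1: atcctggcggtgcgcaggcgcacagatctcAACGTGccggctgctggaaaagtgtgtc
Nr1d2: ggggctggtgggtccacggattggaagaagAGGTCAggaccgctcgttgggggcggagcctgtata

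The Per1 stretch lies at chr11:69098753-69098847 on the plus strand, inside the annotated gene and between its exons, and holds an E-box that begins at -166. The Per3 stretch (chr4:151044786-151044900, minus strand) holds the D-box letters at -205 and again at -158. In Cry1 (chr10:85185079-85185163, minus strand) the E-box begins at -60 and the variant at -79. The variant begins at -166 in Cry2 (chr2:92434200-92434265, minus strand) and at -28 in Nr1d1 (chr11:98775378-98775435, minus strand). Nr1d2 (chr14:18239148-18239213, minus strand) holds the core site at -77. Of 32851 windows of 300 bases over all genes (250 before to 50 after each start), 7.15% hold CACGTG on either strand. The variant CACGTT is in 4.68%, TTATGTAA in 0.938%, AGGTCA in 16.3% and the cyclic AMP element TGACGTCA in 1.79%. Counted per gene, as the members are below, the shares of 27025 genes were 8.09%, 5.44%, 1.11%, 18.1% and 2.03% in the same order. Per2 had no window. Among the 9 other members, 2 hold the E-box, 3 the variant, 1 the D-box and 0 the cyclic AMP element. The core site is in 4, Arntl, Clock, Per1 and Nr1d2, so it is not particular to the repressors. It begins at -119 in Clock and at 31, past the start site, in Arntl. The matches describe letters in these windows and do not show binding.

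Total counts per library ran from 11101901 to 14699949. Nbdy, the check of the genotype labels, stood at 19.0 to 20.1 CPM (counts scaled to a common library size, with TMM factors) in WT and at 9.58 to 10.4 CPM in KO. Markers of heart muscle cells (Myh6, Tnnt2, Tnni3, Actc1, Ryr2 and Mb) summed to 59109 to 71634 CPM in WT and 61048 to 72090 CPM in KO. The 6 atrial markers summed to 266 to 482 CPM in WT and 457 to 714 CPM in KO, with Bmp10 at 0 in every library and 3 of the 6 tested. Nppa made up most of each sum. It averaged 400 CPM over the WT hearts and 601 over the KO hearts (log2 fold change 0.59 ± 0.19). The other tested atrial markers were low: Myl4 averaged 5.10 and 5.07 CPM (-0.0025 ± 0.29) and Upk3b 0.967 and 1.43 CPM (0.58 ± 0.77). The sum thus describes Nppa more than the atrial list. The 6 fibroblast markers, all 6 with a negative log2 fold change, summed to 890 to 1128 CPM in WT and 711 to 917 in KO. The 6 blood markers, all 6 positive, summed to 816 to 1784 and 1148 to 2150. The ranges of the groups also overlapped for the 6 endothelial, 6 macrophage and 6 smooth muscle markers, at 1274 to 1559 and 1259 to 1552 CPM, 121 to 187 and 130 to 199, and 937 to 1170 and 721 to 1354 in WT and KO. None of the markers that were tested passed the test of genotype, and the part of these cells in the clock values was not tested. In bulk RNA, fewer cells of a type and less RNA per cell cannot be told apart. WT replicate 2 stood apart from the other WT hearts: it held 36.7 CPM of Nfil3 against 6.45 to 11.6, and 93.4 CPM of Fkbp5 against 10.4 to 27.9. KO replicate 8 stood apart from the other KO hearts in several of the clock genes themselves. Fold changes of the clock genes without one or the other library are given where they differ most from those over all 8 libraries.

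Levels of the 10 genes were compared per length, in RPKM (CPM per kilobase of annotated exon). Nr1d1 was the most abundant at 48.4 ± 13.3 RPKM (SD, n = 8 libraries). Nr1d2, at 18.1 ± 4.62 RPKM, and Per1, at 19.9 ± 2.96 RPKM, came next. Per1 lay between 15.7 and 24.0 RPKM and Nr1d2 between 11.4 and 24.7, so the order of these neighbours does not exceed their spread. Per2 followed at 6.11 ± 3.54 RPKM, Per3 at 4.39 ± 1.66 and Cry2 at 3.32 ± 0.725. Cry1, at 1.71 ± 0.577, Clock, at 1.50 ± 0.248, Npas2, at 1.20 ± 0.597, and Arntl, at 1.15 ± 0.511 RPKM, lay within each other's spread. The nuclear receptor and Per1 transcripts thus stood above those of the 3 activators in every library.

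None of the 10 genes differed between genotypes past the threshold, an adjusted p of 0.05 over all genes tested in edgeR's quasi-likelihood test. Over all genes 3 passed, which is 0.0225%. At an unadjusted p under 0.05 there were 2 members, Nr1d1 and Per1, beside 6.40% of all genes. The same 2 members had KO values above every WT value, and 4.12% of all genes had no overlap between the groups, in whichever direction. DESeq2 called 1 member, Nr1d1, beside 11 of the 13326 genes to which it gave an adjusted p (0.0825%). The log2 fold changes of the 10 genes had a median of 0.19 and were positive for 7 and negative for 3, against a median of -0.0032 over all genes tested. Because the genes were chosen with earlier results of these data known, these counts describe them and are no independent evidence.

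**Figure D1:**
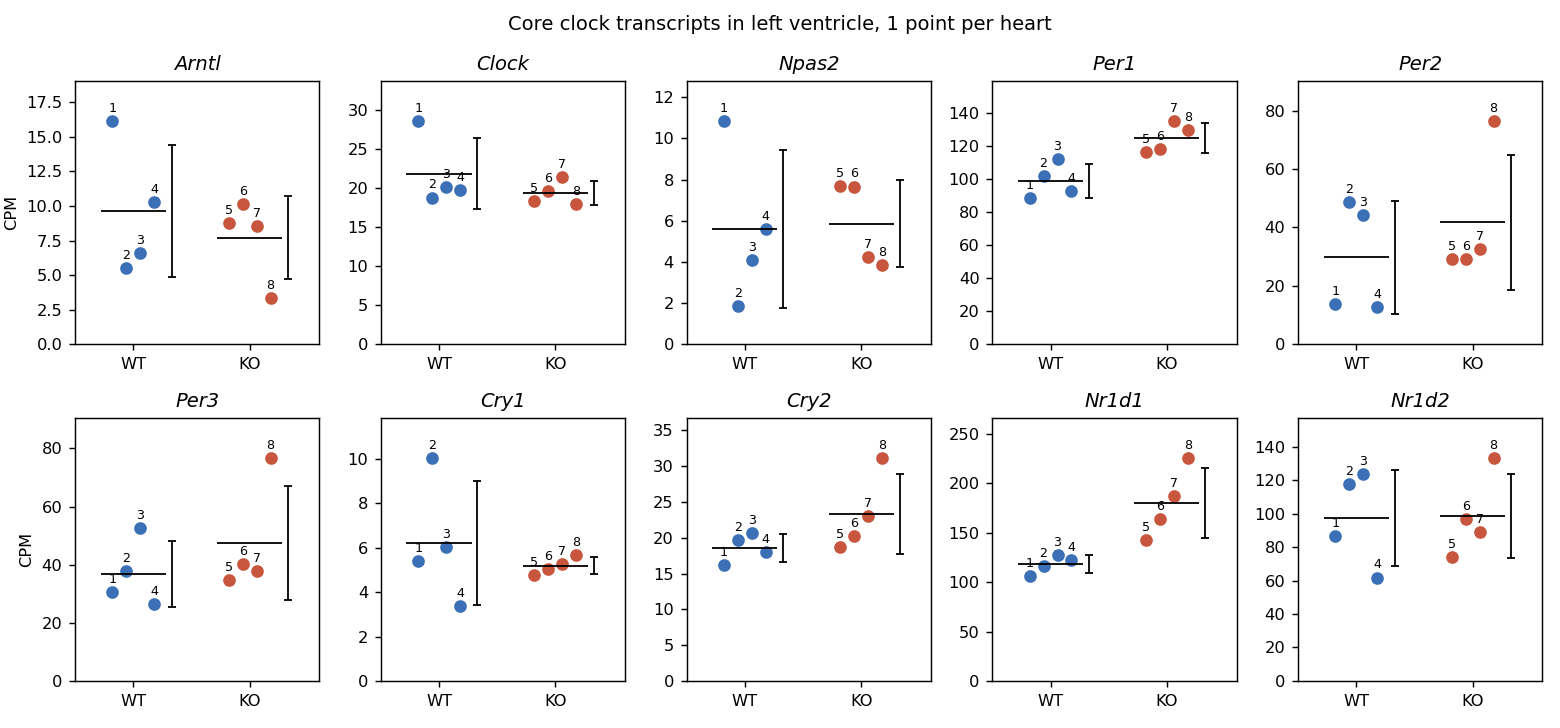
CPM of each clock gene (vertical axes, linear, starting at 0) in WT and KO left ventricles, 1 numbered point per heart, with the group mean as a line and the SD (n = 4) as a bar. Nr1d1 and Per1 have all 4 KO hearts above all 4 WT hearts, whereas Per2, Arntl and Npas2 spread widely within each genotype.

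Arntl, which encodes the activator that both CLOCK and NPAS2 need as partner, stood at 16.1, 5.53, 6.62 and 10.3 CPM in WT replicates 1 to 4 and at 8.75, 10.1, 8.55 and 3.33 CPM in KO replicates 5 to 8. The highest heart was WT replicate 1 and the lowest KO replicate 8, and the groups overlapped. Its log2 fold change, KO against WT, was -0.32 ± 0.35 (SE, 95% confidence interval -1.08 to 0.44), 0.04 without WT replicate 1, -0.51 without WT replicate 2 and -0.08 without KO replicate 8. Arntl (ENSMUSG00000055116) lies on chromosome 7 from 113207465 to 113314126 (plus strand, GRCm38).

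Npas2, the alternative partner of ARNTL, spread even more among WT hearts, from 1.84 CPM in replicate 2 through 4.08 in replicate 3 and 5.61 in replicate 4 to 10.8 in replicate 1. KO replicates 5 to 8 held 7.70, 7.66, 4.24 and 3.85 CPM, all inside the WT range. The log2 fold change of 0.07 ± 0.42 (interval -0.83 to 0.97) had the widest interval of the 3 activators. Without WT replicate 2 it was -0.21, without WT replicate 1 it was 0.60 and without KO replicate 8 it was 0.22.

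Clock, the usual partner of ARNTL, was the steadiest of the activators. It stood at 28.6, 18.8, 20.2 and 19.7 CPM in WT and at 18.4, 19.7, 21.4 and 17.9 CPM in KO. WT replicate 1 was again the highest, as for Arntl and Npas2, and the other 7 hearts lay close together. The log2 fold change was -0.17 ± 0.15 (interval -0.49 to 0.14) and -0.02 without WT replicate 1.

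Nr1d1, the REV-ERB alpha gene, had the largest difference of the 10. WT replicates 1 to 4 held 106.3, 115.9, 127.6 and 122.1 CPM, and KO replicates 5 to 8 held 142.6, 164.4, 187.7 and 225.8 CPM. Every KO heart was above every WT heart, and the 4 WT hearts lay within 1.20-fold of each other. KO was 1.53-fold higher (log2 fold change 0.61 ± 0.14, SE, interval 0.31 to 0.91), with an adjusted p of 0.652 in edgeR. By p-value Nr1d1 ranked 15 among the genes tested. DESeq2 gave 0.61 with an adjusted p of 0.046, and over the edgeR and limma alternatives the adjusted p ran from 0.163 (no filter) to 0.892 (without WT replicate 2). Over all alternatives the log2 fold change ran from 0.48 (without KO replicate 8) to 0.71 (without KO replicate 5).

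Nr1d1 (ENSMUSG00000020889, chromosome 11, 98767932 to 98775333, minus strand) ends opposite Thra, the thyroid hormone receptor alpha gene, and 263 of its 3077 exon bases are also exon of Thra on the other strand. Whether the counting used strand is not given in the sources used here, so reads of the shared bases may not be told apart. For Thra the WT mean was 61.8 ± 4.29 CPM and the KO mean 70.0 ± 7.21 CPM (SD over 4 hearts), the log2 fold change was 0.18 ± 0.11 and the groups overlapped.

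Nr1d2, the REV-ERB beta gene, did not separate the genotypes. It stood at 86.8, 117.8, 123.5 and 61.8 CPM in WT and at 74.3, 96.7, 89.1 and 133.4 CPM in KO. The lowest heart was WT replicate 4 and the highest KO replicate 8. Its log2 fold change was 0.01 ± 0.22 (interval -0.46 to 0.48). It was negative when libraries were scaled by their totals alone (-0.04). It was also negative without KO replicate 8 (-0.17), WT replicate 4 (-0.16) or WT replicate 1 (-0.04). Without WT replicate 2 it was 0.12.

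Per1, a period repressor that also responds quickly to glucocorticoids and other acute signals, was the other gene with separate groups. It held 88.5, 101.8, 112.2 and 92.8 CPM in WT replicates 1 to 4, and 116.7, 118.5, 135.2 and 129.9 CPM in KO replicates 5 to 8. The gap between the highest WT and the lowest KO heart was small beside the range within each group. KO was 1.27-fold higher (log2 fold change 0.34 ± 0.11, interval 0.10 to 0.58), with an adjusted p of 0.711 in edgeR and 0.393 in DESeq2. Over the alternatives its log2 fold change ran from 0.29 to 0.40. Per1 (ENSMUSG00000020893) lies on chromosome 11 from 69095217 to 69109960.

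Other known glucocorticoid targets were listed with Per1, and none of them passed. Summed with Per1 they took 422 to 850 CPM in WT and 417 to 678 CPM in KO. Fkbp5, a chaperone of steroid receptors, was high in WT replicate 2 at 93.4 CPM and in KO replicate 8 at 58.5 CPM, where Per2 was also high, and at 10.4 CPM was lowest in WT replicate 1. Zbtb16, a zinc finger gene induced by glucocorticoids, stood at 80.2 CPM in KO replicate 8, 59.8 CPM in WT replicate 2 and 37.5 CPM in KO replicate 7, and at 3.01 to 8.59 CPM in the other 5 hearts. Of the 6 genes of the list 0 passed and 2 were positive, with a median log2 fold change of -0.06. Among those named by the rule, Sgk1 stood at -0.35 ± 0.22, Zbtb16 at 0.80 ± 0.93 and Tsc22d3 at -0.08 ± 0.26. The part of these genes' regulation in the Per values was not tested.

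Per2, the period repressor, had the widest spread within genotypes. WT replicates 1 to 4 held 13.6, 48.8, 44.2 and 12.7 CPM, and KO replicates 5 to 8 held 29.1, 29.1, 32.6 and 76.4 CPM. WT replicates 2 and 3 were more than 3 times as high as WT replicates 1 and 4, and 3 KO hearts fell in the gap between them. The log2 fold change of 0.49 ± 0.44 (interval -0.46 to 1.43) was 0.02 without KO replicate 8 and 0.83 without WT replicate 2. With 1 surrogate variable, itself highest in WT replicate 2, the log2 fold change was 0.98. Per2 passed in none of these (adjusted p of 0.994, 0.968 and 0.668 in edgeR). Per2 (ENSMUSG00000055866) lies on chromosome 1 from 91415982 to 91459324, on the minus strand.

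Per3, the third period gene, followed Per2 at the extremes. It stood at 30.4, 37.8, 52.5 and 26.6 CPM in WT and at 34.9, 40.4, 37.8 and 76.7 CPM in KO. KO replicate 8 was the highest heart and WT replicate 4 the lowest for Per3 as for Per2. The log2 fold change was 0.36 ± 0.26 (interval -0.19 to 0.92), and 0.03 without KO replicate 8.

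Cry1, a cryptochrome that represses the activators most strongly late in the cycle, was steady in KO at 4.76, 5.04, 5.26 and 5.69 CPM and spread in WT at 5.38, 10.05, 6.04 and 3.38 CPM. All KO hearts lay inside the WT range, between WT replicates 4 and 2. The log2 fold change was -0.25 ± 0.28 (interval -0.85 to 0.34) and 0.07 without WT replicate 2.

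Cry2, its paralog, stood at 16.2, 19.6, 20.7 and 17.97 CPM in WT and at 18.8, 20.2, 23.1 and 31.2 CPM in KO. Only KO replicates 7 and 8 exceeded the highest WT heart. The log2 fold change was 0.32 ± 0.16 (interval -0.03 to 0.67, adjusted p of 0.777 in edgeR), and 0.15 without KO replicate 8.

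**Figure D2:**
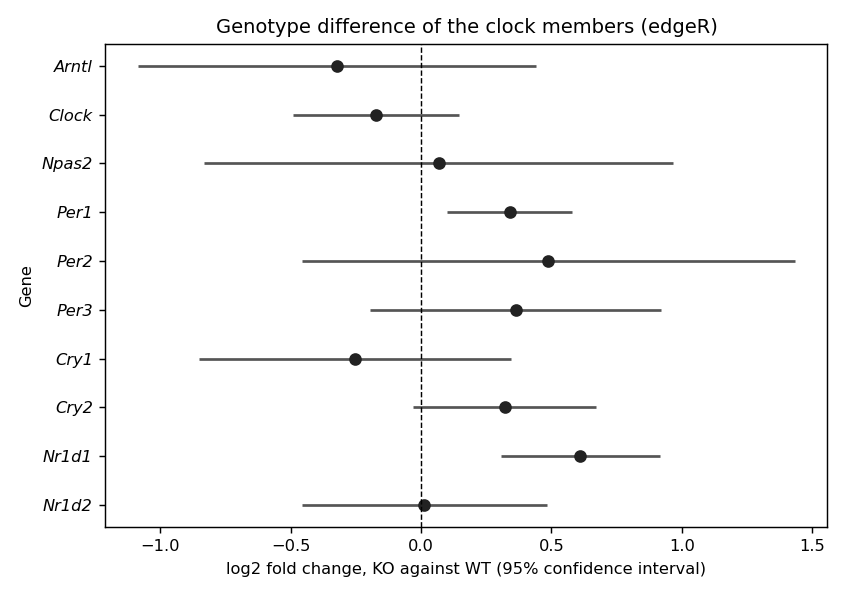
Log2 fold change of each clock gene, KO against WT (horizontal axis), as points with 95% confidence intervals from the edgeR fit over 8 libraries. The intervals of Nr1d1 (0.31 to 0.91) and Per1 (0.10 to 0.58) do not include 0, those of the other 8 genes do, and none passed after adjustment over all genes.

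Spread within a genotype, as SD of log2 CPM, was larger than the absolute log2 fold change for 7 of the 10 genes. The same share over all genes was not computed, so this count is no trait of the clock genes. The SD of log2 CPM within genotypes was 0.88 for Per2, 0.81 for Npas2 and 0.70 for Arntl, which placed these 3 at percentiles 98.6, 98.0 and 96.4 of all genes tested. It was 0.48 for Per3, 0.45 for Cry1 and 0.41 for Nr1d2, at percentiles 87.4, 85.5 and 82.1. Cry2 had 0.25, Nr1d1 0.21, Clock 0.21 and Per1 0.13, at percentiles 56.8, 46.1, 44.5 and 12.9. The median over the 10 genes was 0.43 and over all genes tested 0.23. Npas2, Cry1 and Arntl had the lowest CPM of the 10 genes, and the part of low counts in their spread was not tested. Per2 had 165 to 873 counts per library.

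The hearts highest in Arntl were low in Per2, and the heart lowest in Arntl was the highest in Per2. Set against the mean of the 8 libraries, Arntl was 1.01 log2 units high in WT replicate 1, where Npas2 was 1.07 high, Clock 0.48 high and Per2 1.16 low. In KO replicate 8 the signs were the opposite, with Arntl 1.21 low, Npas2 0.39 low, Per2 1.31 high, Per3 0.94 high, Nr1d1 0.64 high and Cry2 0.59 high. WT replicate 4 resembled WT replicate 1 in Arntl (0.37) and Per2 (-1.27). WT replicates 2 and 3 lay on the side of KO replicate 8, with Arntl at -0.51 and -0.26 and Per2 at 0.66 and 0.52. KO replicates 5, 6 and 7 were near the mean for Per2, between -0.08 and 0.08. Both sides of this pattern therefore held WT hearts, and 1 KO heart was at its end.

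**Figure D3:**
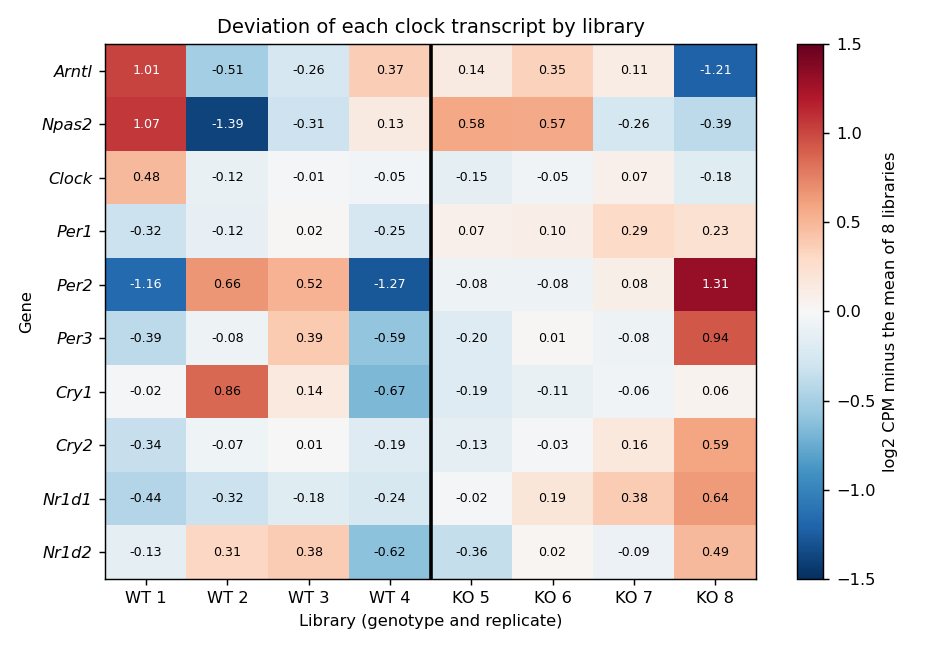
Log2 CPM of each clock gene (rows, activators first) minus its mean over the 8 libraries, for each heart (columns, WT left and KO right of the line). Red in Arntl and Npas2 meets blue in Per2 in WT 1 and WT 4, and the reverse stands in WT 2, WT 3 and KO 8; Nr1d1 and Per1 differ from this pattern in that their WT values are low or near the mean in all 4 hearts.

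Arntl was compared with each of the other 9 genes over the 8 libraries, as log2 CPM, by exact permutation tests over all 40320 pairings with Benjamini-Hochberg adjustment over the 9 relations. Per2 had the closest relation, and it was inverse. Pearson's r was -0.91 (exact permutation p = 0.0018, adjusted p = 0.016) and Spearman's rho was -0.98 (exact permutation p = 3.97e-04, adjusted p = 0.0036). Without the 2 libraries farthest from the median of Arntl, WT replicate 1 and KO replicate 8, r was -0.81 (exact permutation p = 0.0375, n = 6). With the genotype means removed, r was again -0.91, with an adjusted p of 0.057 from exact permutation within genotypes. The adjusted p was 0.077 without WT replicate 1 and 0.0625 without WT replicate 3, with r of -0.87 and -0.91 (exact permutation, n = 7).

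Cry2 and Per3 were also inversely related to Arntl, but these relations were weaker without KO replicate 8, 1 of the 2 extreme hearts. Without KO replicate 8 alone r was -0.62 for Cry2 and -0.60 for Per3. Without WT replicate 1 alone r was -0.80 and -0.84. For Cry2, r was -0.85 (exact permutation p = 0.011, adjusted p = 0.038; rho -0.79, exact permutation p = 0.028, adjusted p = 0.063), and -0.19 without WT replicate 1 and KO replicate 8. For Per3, r was -0.83 (exact permutation p = 0.013, adjusted p = 0.038; rho -0.74, exact permutation p = 0.046, adjusted p = 0.082), and -0.52 without them. Only these 3 of the 9 relations passed by r. With the genotype means removed none of the 3 passed. The adjusted p was then 0.055 for Cry2 and 0.091 for Per3 by exact permutation within genotypes.

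Npas2 was positively related to Arntl, with r of 0.74 (exact permutation p = 0.038, adjusted p = 0.079) and rho of 0.88 (exact permutation p = 0.0072, adjusted p = 0.033). Here r was 0.87 without the 2 extreme hearts and was 0.82 with the genotype means removed (adjusted p = 0.031 by exact permutation within genotypes). Nr1d2 had r of -0.71 (exact permutation p = 0.046, adjusted p = 0.079; rho -0.81, exact permutation p = 0.022, adjusted p = 0.063). Clock had r of 0.74 (exact permutation p = 0.053, adjusted p = 0.079; rho 0.57, exact permutation p = 0.151, adjusted p = 0.194), and 0.18 without the 2 hearts. Nr1d2 kept r of -0.78 without them.

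Nr1d1, Per1 and Cry1 had the Pearson r with Arntl nearest to 0 over the 8 libraries. Nr1d1 had r of -0.58 (exact permutation p = 0.135, adjusted p = 0.168; rho -0.48, exact permutation p = 0.243, adjusted p = 0.243), and r was 0.48 without the 2 extreme hearts. Per1 had r of -0.56 (exact permutation p = 0.15, adjusted p = 0.168; rho -0.52, exact permutation p = 0.197, adjusted p = 0.221), and 0.11 without them. Cry1 had r of -0.45 (exact permutation p = 0.257, adjusted p = 0.257; rho -0.67, exact permutation p = 0.083, adjusted p = 0.125), and -0.91 without them. The relations of Nr1d1 and Per1 thus changed sign when 2 hearts were left out, with exact permutation p of 0.33 and 0.85. With the genotype means removed both were negative over the 8 libraries, with r of -0.72 for Nr1d1 and -0.66 for Per1. Neither passed (adjusted p of 0.099 and 0.127 by exact permutation within genotypes). As a description over all genes tested, 0.270% had an absolute r with Arntl at least as high as Per2, 1.09% as Cry2, 1.46% as Per3, 14.9% as Nr1d1 and 17.0% as Per1.

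**Figure D4:**
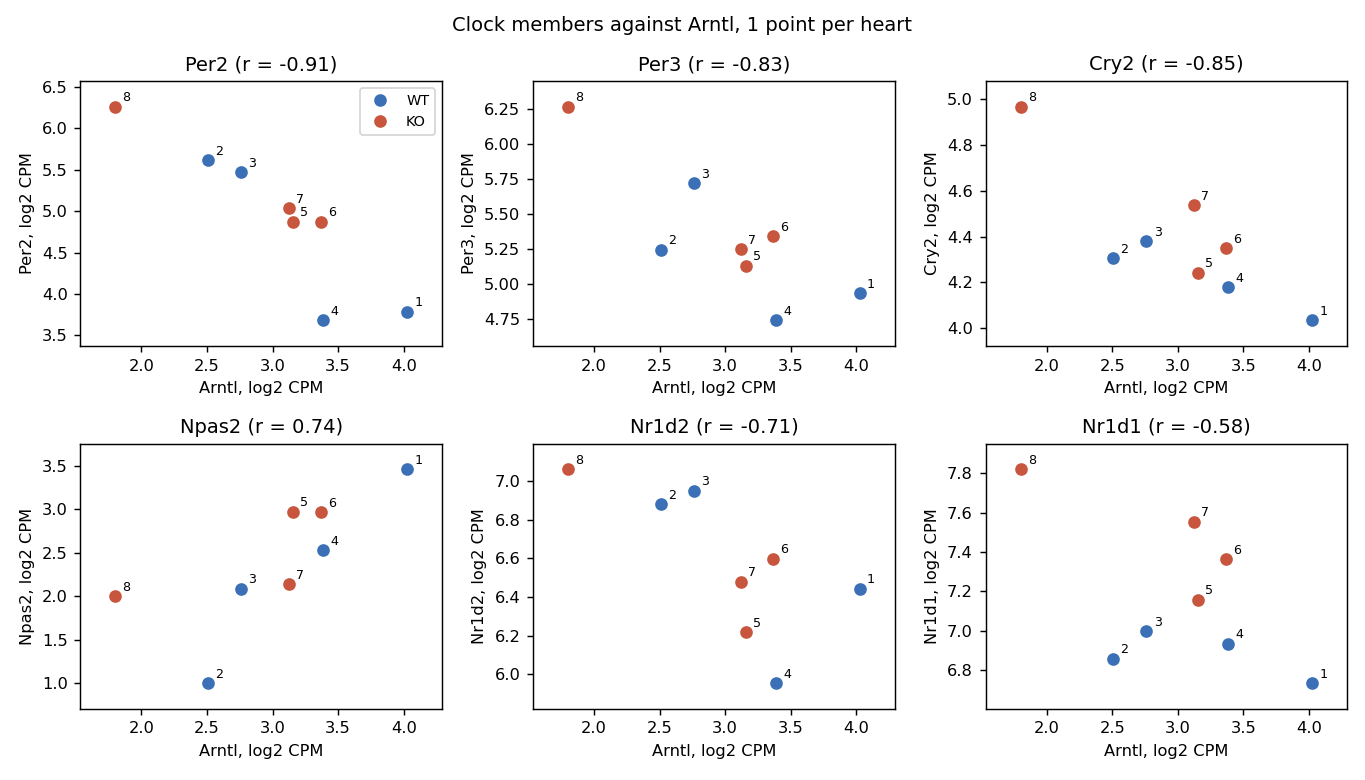
Log2 CPM of 6 clock genes (vertical axes) against log2 CPM of Arntl (horizontal axes), 1 numbered point per heart, WT blue and KO red. Per2 is lower in hearts with more Arntl over the 8 hearts (r = -0.91), whereas for Nr1d1 the KO points lie above the WT points at like levels of Arntl.

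Nr1d1 was compared with Arntl heart by heart, since its product represses Arntl. The 4 WT hearts spanned 5.53 to 16.1 CPM of Arntl and held 106.3 to 127.6 CPM of Nr1d1. KO replicates 5, 6 and 7 had Arntl between 8.55 and 10.1 CPM, inside the WT range, and held 142.6 to 187.7 CPM of Nr1d1. The ratio of Nr1d1 to Arntl in CPM was 6.59, 20.97, 19.3 and 11.9 in the WT hearts, replicate 1 first, against 16.3, 16.2, 22.0 and 67.9 in the KO hearts, replicate 5 first. The ratio overlapped between genotypes, and KO replicate 8 was at least 3 times as high as any other heart. The ratio of Per2 to Arntl ran from 0.846 to 8.82 in WT and from 2.87 to 23.0 in KO.

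Other genes of the clock pathway were taken from lists by known function. Of 8 tested genes of the accessory loop and auxiliary repressors (9 listed, Rorb not tested), 0 passed, 5 were positive and the median log2 fold change was 0.18. Ciart, a repressor of CLOCK and ARNTL, had a WT mean of 7.14 ± 3.43 CPM and a KO mean of 13.8 ± 11.5 CPM (SD over 4 hearts) and a log2 fold change of 0.95 ± 0.51, with 30.2 CPM in KO replicate 8 alone and a log2 fold change of 0.23 without it. Cipc and Bhlhe41, both repressors of the activators, stood at 0.27 ± 0.16 and 0.21 ± 0.16. The adjusted p of these 3 genes lay between 0.783 and 0.824 in edgeR.

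Kinases and turnover factors act on the clock proteins after translation. Of 12 tested (13 listed, Fbxl21 not tested), 0 passed, 7 were positive and the median log2 fold change was 0.03. Gsk3a, a kinase that phosphorylates clock proteins, had KO values above WT, at 51.3 ± 5.42 and 62.7 ± 1.34 CPM in WT and KO (0.29 ± 0.10, adjusted p = 0.726 in edgeR). Csnk1a1 stood at -0.20 ± 0.12, Csnk1d, a kinase that marks the period proteins for degradation, at 0.14 ± 0.10 and Gsk3b at -0.13 ± 0.11.

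Among the output transcription factors and direct targets, 0 of 8 passed, 7 were positive and the median log2 fold change was 0.15. Dbp, a transcription factor driven directly by CLOCK and ARNTL, held 118.1 ± 34.9 CPM in WT and 149.7 ± 58.2 CPM in KO (0.34 ± 0.26). Tef and Hlf, its relatives that also bind D-boxes, stood at 0.35 ± 0.18 and 0.28 ± 0.27. Nfil3, the repressor of D-box genes, stood at -0.996 ± 0.44, with 36.7 CPM in WT replicate 2, and at -0.15 without that library. These 8 genes had r with Arntl from -0.98 to -0.15 over the 8 libraries, all 8 negative, with a median of -0.88. That median was -0.43 over the 12 kinase and turnover genes and -0.48 over the 8 accessory genes. Usp2, a rhythmic deubiquitinase among the 12, had -0.93. The glucocorticoid targets other than Per1 had a median r of -0.69 over 5 genes, 4 of them negative. A negative r with Arntl was thus not particular to the clock lists.

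Cardiac genes linked to the clock of heart muscle cells were divided in their relation to Arntl. Of 8 tested 0 passed, 6 were positive and the median log2 fold change was 0.10, with Dgat2, a triglyceride synthesis enzyme, at 0.31 ± 0.14, Pdk4, an inhibitor of glucose oxidation, at 0.72 ± 0.37 and the potassium channel gene Kcnh2 at 0.28 ± 0.20. Their r with Arntl ran from -0.85 (Pik3r1, a regulatory subunit of PI3 kinase) to 0.85 (Bdh1, a ketone body enzyme), with a median of -0.02. Kcnip2, which encodes a potassium channel subunit, was near 0 at -0.07. These correlations are descriptions over 8 libraries, 4 of each genotype.

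The genes whose levels ran most against Arntl, out of 11957 protein-coding genes of at least 1 CPM, were Hlf (r = -0.98), Ier3 (-0.96), Rilpl1 (-0.95), Ube2a (-0.94) and Slc31a2 (-0.94). Those that ran most with it were Vgll3 (0.96), Plekhh2 (0.95), Anks6 (0.95), Zfp503 (0.95) and Dock8 (0.95). Hlf stood at 9.31, 20.6, 17.0 and 14.7 CPM in WT and at 14.0, 15.0, 15.8 and 30.1 CPM in KO, with its lowest value in WT replicate 1 and its highest in KO replicate 8. Over all 13336 genes tested, 33 had r above 0.9 with Arntl and 17 had r below -0.9.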

How the data were processed

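RNA-seq of left ventricles used a stranded poly(A) kit, per the labels' protocols. STAR 2.7.1a and the genome builds GRCm38 and mm10 are named, per the submitters' processing notes. Raw read counts per Ensembl gene, 1 column per heart, are what the authors deposited, and columns were matched to samples by name. For the counting tool, its use of strand and its annotation, nothing is stated in the sources used here. Each pair of libraries differed beyond sampling noise, with a chi-square over its degrees of freedom of 10.8 to 55.5. The tests took the hearts as independent. Nothing says that they came from separate litters, so whether the p-values hold beyond these samples is not known.

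After a low-count filter (filterByExpr, minimum count 10) and TMM scaling, KO was set against WT with edgeR 4.0.16 (quasi-likelihood, two-sided, genotype as the only term, R 4.3.3), with Benjamini-Hochberg adjustment over 13336 genes. SE was the log2 fold change divided by the root of F. The median SE over the genes tested was 0.16, with 4 hearts per genotype at this depth. Relations used log2 CPM with a prior count of 2. Exon lengths, positions and symbols came from GENCODE M21 (36429 identifiers matched), and promoters from RefSeq. The tests were run on simulated data. For the genotype test every simulated gene had the same coefficient of variation between hearts, 0.18. Arntl, Npas2 and Per2 had 0.34, 0.40 and 0.42, so that run does not cover genes of their spread.

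Alternatives were other scalings and filters, DESeq2 1.42.0, limma-voom 3.58.1, 1 surrogate variable (sva 3.50.0), removal of mitochondrial genes, an adjusted p of 0.10, and each library left out. The members and lists were chosen with earlier results of these data known. All members are named, with Nbdy, up to 4 genes of each list by smallest p, and the 5 genes most and least like Arntl by r. Of the genes this rule names, 2 are not reported here. Other genes named, such as Fkbp5, Usp2, Pik3r1, Bdh1, Kcnip2 and Thra, were chosen after their values were seen.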

Additional observations from a re-analysis of the deposited data

Results flagged for a closer look

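In 3 of 20 groups of 4 hearts, 1 heart lay far from the other 3, with a gap, relative to the group's whole range, above Dixon's critical value at the 95% level. Chance alone gives this in about 1 of 20 groups of normally distributed values, and whether CPM follow that distribution was not tested. Only groups of the clock genes were examined in this way. Without the share of flagged groups over all genes, which was not computed, this count is no trait of the clock genes. Clock was at 28.6 CPM in WT replicate 1 against 18.8 to 20.2 in the other WT hearts. Per2 was at 76.4 CPM in KO replicate 8 against 29.1 to 32.6 in the other KO hearts. Per3 was at 76.7 CPM in the same library against 34.9 to 40.4. The 20 groups share libraries, and 2 of the 3 flags come from 1 heart.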

How the results depend on the processing

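Over all genes 3 passed in edgeR, 10 without a filter, 11 with DESeq2 and 5 with 1 surrogate variable, and 2 to 6 with 1 library left out. No clock member passed except Nr1d1 with DESeq2 (1 of 10), and 0 genes of the pathway lists passed under any of these alternatives. Nr1d2 turned to -0.041 with library totals alone, and Npas2 to -0.22 and Cry1 to 0.021 with 1 surrogate variable. That variable was 0.83 in WT replicate 2 and between -0.36 and 0.14 in the other libraries. It is thus not separate from leaving that heart out, and the cause was not tested. With 1 library left out, the log2 fold change of Arntl ran from -0.51 (WT replicate 2) to 0.043 (WT replicate 1), of Npas2 from -0.21 (WT replicate 2) to 0.60 (WT replicate 1), of Cry1 from -0.47 (WT replicate 4) to 0.072 (WT replicate 2) and of Nr1d2 from -0.17 (KO replicate 8) to 0.14 (WT replicate 3). Clock, Per1, Per2, Per3, Cry2 and Nr1d1 kept their direction under all 16 alternatives. Of the 9 relations with Arntl 3 passed. With genotype means removed 1 passed, Npas2, which was not among these 3. With library totals alone 1 passed, Per2, and with 1 library left out 0 (WT replicates 1 or 3) to 4 (WT replicate 2). No paired analysis was possible because the genotypes share no replicate numbers. Npas2, Arntl and Cry1 had 20 to 201 counts per library and SE of 0.42, 0.35 and 0.28, and Per2, with 165 to 873 counts, had 0.44, against a median SE of 0.16 over all genes. Ciart without each library in turn (0.23 to 1.23) and Nfil3 (-1.26 to -0.15) were added after seeing the data.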
